A study of Mus musculus with 12 samples.

Results

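To determine which transcripts differed after PD-L1 blockade in CD8+ T cells that express the adenosine receptor A2AR, the anti-PD-L1 GFP+ libraries KT19, KT21 and KT23 were compared with the non-treated GFP+ libraries KT13, KT15 and KT17. These are 6 of the 12 libraries of the series and were chosen by their sample labels. The other 6 libraries, 3 anti-PD-L1 and 3 non-treated, hold GFP− CD8+ T cells. They contributed to the estimate of the spread and to the test of whether the treatment difference itself depended on GFP. All cells were CD8+ T cells sorted from AT3ova tumors, an ovalbumin-expressing mouse mammary carcinoma line, grown in female A2AR eGFP reporter mice. According to the methods, the mice were between 6 and 16 weeks old. The reporter is a bacterial artificial chromosome transgene, Tg(Adora2a-EGFP)EP141Gsat on a C57BL/6 background, in which Adora2a sequences drive eGFP. GFP therefore reports the activity of the transgene, and the mice carry their own Adora2a alleles besides it. Mice received 500000 tumor cells subcutaneously, anti-PD-L1 at days 14 and 18 in the treated groups only, and tumors were taken at day 21. Each library was pooled from 3 mice.

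A2AR is a G protein-coupled receptor that raises intracellular cAMP when it binds adenosine, a metabolite that accumulates in tumors, and cAMP restrains the signals of the T cell receptor. PD-1 is an inhibitory receptor of activated T cells, and blocking its ligand PD-L1 releases that inhibition. Cytotoxic CD8+ T cells kill through perforin, which opens the target membrane, and through granzymes, the proteases it lets in. They also secrete interferon gamma and chemokines that recruit other immune cells.

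Before the comparison, 2 of the 6 libraries stood apart from the rest. Processed pseudogenes took 14.6% of the counts in KT13 and 13.2% in KT21, against 18.0% to 20.4% in the other 10 libraries. Set against the other libraries of their groups, their counts gave a chi-square of 73.6 to 101 per degree of freedom, whereas all other pairs within groups gave 11.9 to 21.2. One of them is non-treated and the other is treated. Tests of the treatment are therefore given over all 12 libraries and again without KT13 and KT21, which leaves 2 treated and 2 non-treated GFP+ libraries. Total counts in the 6 GFP+ libraries ranged from 11292699 to 15746937. Transcripts of the CD8 T cell receptor complex were abundant in all 6, with a summed level over 12 CD8 T cell markers of 5590 to 6243 CPM (counts scaled to a common library size) in the non-treated and 6605 to 8718 CPM in the treated libraries, which did not overlap. Markers of CD4+ and regulatory T cells summed to between 7.41 and 24.3 CPM. As these are bulk samples, fewer cells of a kind and less RNA per cell cannot be told apart.

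**Figure D1:**
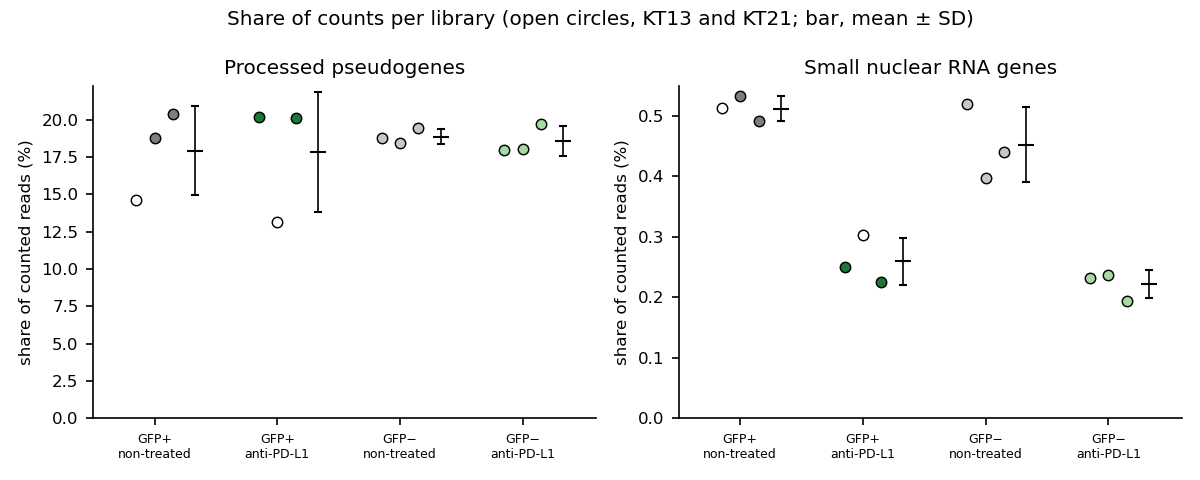
Share of all counted reads, in percent, taken by processed pseudogenes (left) and by small nuclear RNA genes (right) in each of the 12 libraries, with the mean ± SD of the 3 libraries of each group beside the points. KT13 and KT21 (open circles) lie below the other libraries for pseudogenes, at 14.6% and 13.2%, and the treated GFP+ libraries lie at 0.225% to 0.302% for small nuclear RNA genes, below the non-treated ones at 0.491% to 0.532%.

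Over all 12 libraries, 2 genes were higher and 0 were lower after anti-PD-L1 among 14173 genes tested (0.0141% called higher). Both, Prf1 and Ccl3, belong to the effector program. Calls were made where edgeR's quasi-likelihood F test, after Benjamini-Hochberg adjustment, gave p below 0.05, and before adjustment 955 genes (6.74%) were below 0.05. Without KT13 and KT21, 37 genes were higher and 46 were lower among 14747 tested (0.251% and 0.312%), and 1260 (8.54%) were below 0.05 before adjustment. All 37 and all 46 kept their direction in the fit of 12 libraries. In 26 of the 37 all 3 treated GFP+ libraries, KT21 included, lay above all 3 non-treated ones, and in 38 of the 46 all 3 lay below. Such separation was seen in 4.66% (above) and 5.67% (below) of the 14173 genes tested. Because the fit of 12 libraries holds all the libraries that chose these genes, the kept direction is a description. The separation is one too, because the 4 GFP+ libraries that chose the genes are among the 6. Up to 15 genes per direction called without KT13 and KT21 are named below because they separated. Their lack of overlap follows from that choice. With KT13 and KT21 kept but weighted by their quality, limma-voom called 15 genes higher and 37 lower (0.106% and 0.261% of 14173), of which 15 and 35 were among the 37 and the 46. The weights were 0.348 for KT13 and 0.229 for KT21, against 0.718 to 1.89 for the other libraries, so this overlap is no independent check. DESeq2 called 34 higher and 59 lower over 12 libraries (0.255% and 0.442% of 13346 with an adjusted p), of which 18 and 34 were shared. Of the 37 higher genes, 35 were protein-coding. Of the 46 lower genes, 33 were small nuclear RNA (snRNA) genes and 9 were protein-coding.

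**Figure D2:**
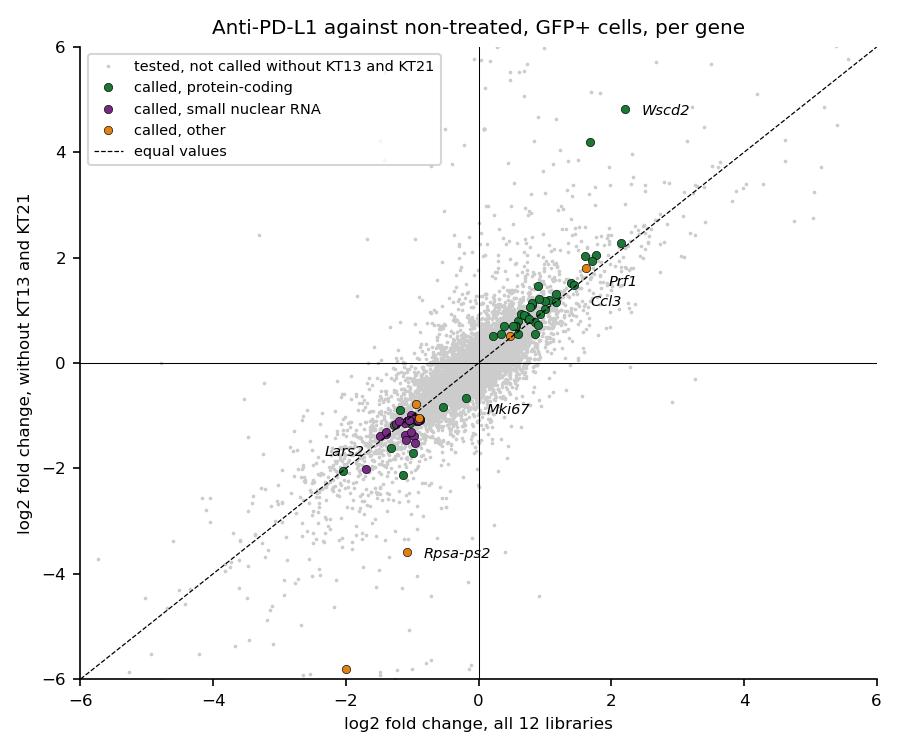
Each point is a gene tested in both fits, with its log2 fold change (anti-PD-L1 against non-treated GFP+ cells) over all 12 libraries on the horizontal axis and without KT13 and KT21 on the vertical axis, and 59 genes lie outside the axes. Prf1 and Ccl3 lie close to the line of equal values, the purple snRNA genes cluster near −1 on both axes, and Rpsa-ps2 and Wscd2 lie far from the line.

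Prf1, which encodes perforin, had 127, 133 and 113 CPM in the non-treated libraries KT13, KT15 and KT17, and 379, 275 and 565 CPM in the treated libraries KT19, KT21 and KT23. The groups did not overlap, and KT21 was the lowest of the treated libraries. The mean was 125 ± 10.2 CPM (SD, n = 3) in the non-treated and 406 ± 147 CPM (SD, n = 3) in the treated libraries. By edgeR's quasi-likelihood test the log2 difference came to 1.71 (SE 0.218, adjusted p = 0.0121) over all 12 libraries and to 1.94 (SE 0.163, adjusted p = 4.78e-07) without KT13 and KT21. Ccl3, a chemokine that attracts monocytes and T cells, had 114, 106 and 92.5 CPM in the non-treated and 234, 293 and 318 CPM in the treated libraries. Here KT21 lay within the other treated libraries. For Ccl3 the log2 difference was 1.43 (SE 0.175, edgeR adjusted p = 0.0121) and 1.47 (SE 0.168, adjusted p = 6.96e-05) without KT13 and KT21. Both genes lost the call over 12 libraries when KT15 (adjusted p = 0.0749 for each, edgeR) or KT17 (0.176 for each) was left out.

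Gzmb, the granzyme B protease, showed how far KT21 could move a gene. Its level was 156, 229 and 191 CPM in the non-treated libraries, and 405, 115 and 468 CPM in KT19, KT21 and KT23. KT21 lay below every non-treated library and the other treated libraries lay above them all. The estimate for Gzmb on the log2 scale was 0.78 (SE 0.357, adjusted p = 0.726, edgeR) over all 12 libraries and 1.05 (SE 0.147, adjusted p = 6.83e-04) without KT13 and KT21. Of the 23 cytotoxic granule genes, all tested, 1 was called higher over 12 libraries and 4 without KT13 and KT21 (Prf1, Gzmb, Gzmf and Nkg7), and none was called lower in either fit. The median log2 fold change of the list was 0.74 over 12 libraries and 0.71 without KT13 and KT21, while the median over all genes tested was −0.0065 and 0. In 9 of the 23 all treated libraries lay above all non-treated ones, against 4.66% of all genes tested. The shares of all genes called higher were 0.0141% over 12 libraries and 0.251% without KT13 and KT21. Gzmf, a granzyme expressed by highly activated cytotoxic cells, had 9.61, 4.18 and 10.96 CPM in the non-treated and 19.5, 21.0 and 43.6 CPM in the treated libraries (log2 fold change 2.06 without KT13 and KT21, edgeR adjusted p = 0.0164, and 1.77 over 12, adjusted p = 0.228). Nkg7, a granule membrane protein needed for exocytosis, had 770 to 936 CPM in the non-treated and 1218 to 1981 CPM in the treated libraries (log2 fold change 0.55, edgeR adjusted p = 0.0124 without KT13 and KT21, and 0.85, adjusted p = 0.0946 over 12). Gzma, named after its values were seen, had 66.6 to 125 CPM in the non-treated and 170 to 294 CPM in the treated libraries, without overlap, and did not pass (edgeR adjusted p = 0.228 over 12 libraries and 0.139 without KT13 and KT21). Granzyme genes of one cluster are close paralogs, and reads shared between them were not told apart here.

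The promoters of these 3 genes are shown because they were the 3 protein-coding genes with the smallest adjusted p without KT13 and KT21. The sequences are the 250 bases before the RefSeq start on GRCm38.p6, read 5′ to 3′ on the strand of the gene. Capitals mark matches on either strand, and no match overlapped another. The letters searched were TGANTCA (for AP-1), TGACGT (the core of the cAMP response element), TGTGGT (the RUNX site) and TTCNNNGAA (the STAT site). N is any base, so TGANTCA is wider than the AP-1 site, TGACTCA or TGAGTCA.
Prf1, chr10:61297586-61297835, + strand: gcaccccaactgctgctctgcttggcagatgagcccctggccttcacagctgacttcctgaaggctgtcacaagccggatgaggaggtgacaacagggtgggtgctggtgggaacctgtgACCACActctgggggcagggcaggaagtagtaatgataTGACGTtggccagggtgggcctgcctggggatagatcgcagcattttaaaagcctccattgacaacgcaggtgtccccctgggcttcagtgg
Ccl3, chr11:83649379-83649628, − strand: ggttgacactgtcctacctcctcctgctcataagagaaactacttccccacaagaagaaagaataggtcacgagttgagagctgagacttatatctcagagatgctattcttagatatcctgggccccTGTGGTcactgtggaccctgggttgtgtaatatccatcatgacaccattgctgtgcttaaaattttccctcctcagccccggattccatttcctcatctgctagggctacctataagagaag
Gzmb, chr14:56262335-56262584, − strand: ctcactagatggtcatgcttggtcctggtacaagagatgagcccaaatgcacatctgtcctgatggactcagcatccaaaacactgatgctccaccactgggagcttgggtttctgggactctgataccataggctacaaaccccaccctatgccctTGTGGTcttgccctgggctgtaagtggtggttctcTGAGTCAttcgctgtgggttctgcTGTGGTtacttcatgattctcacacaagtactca
The Prf1 window held TGACGT starting 92 bases before the start and the RUNX letters at 130, the Ccl3 window held the RUNX letters at 122, and the Gzmb window held the AP-1 letters at 58 and the RUNX letters at 93 and 34. Of 27025 mouse promoters of this length, 6.87% held the AP-1 letters, 6.56% TGACGT, 14.2% the RUNX letters and 7.18% the STAT letters. Promoters were matched for 28 of the 37 genes called higher without KT13 and KT21. Among them 7 held the AP-1 letters (Gzmb, Havcr2, Prdm1, AA467197, Bcl2a1b, Bcl2a1d and Sdcbp2), 7 the RUNX letters, 3 TGACGT and 2 the STAT letters. Bcl2a1b and Bcl2a1d are genes that share much of their sequence, so they may not count as separate cases. Among the 9742 matched promoters of genes tested, the shares were 4.29%, 11.1%, 10.4% and 6.03%. A match is a description of the letters and no site of binding was measured.

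**Figure D3:**
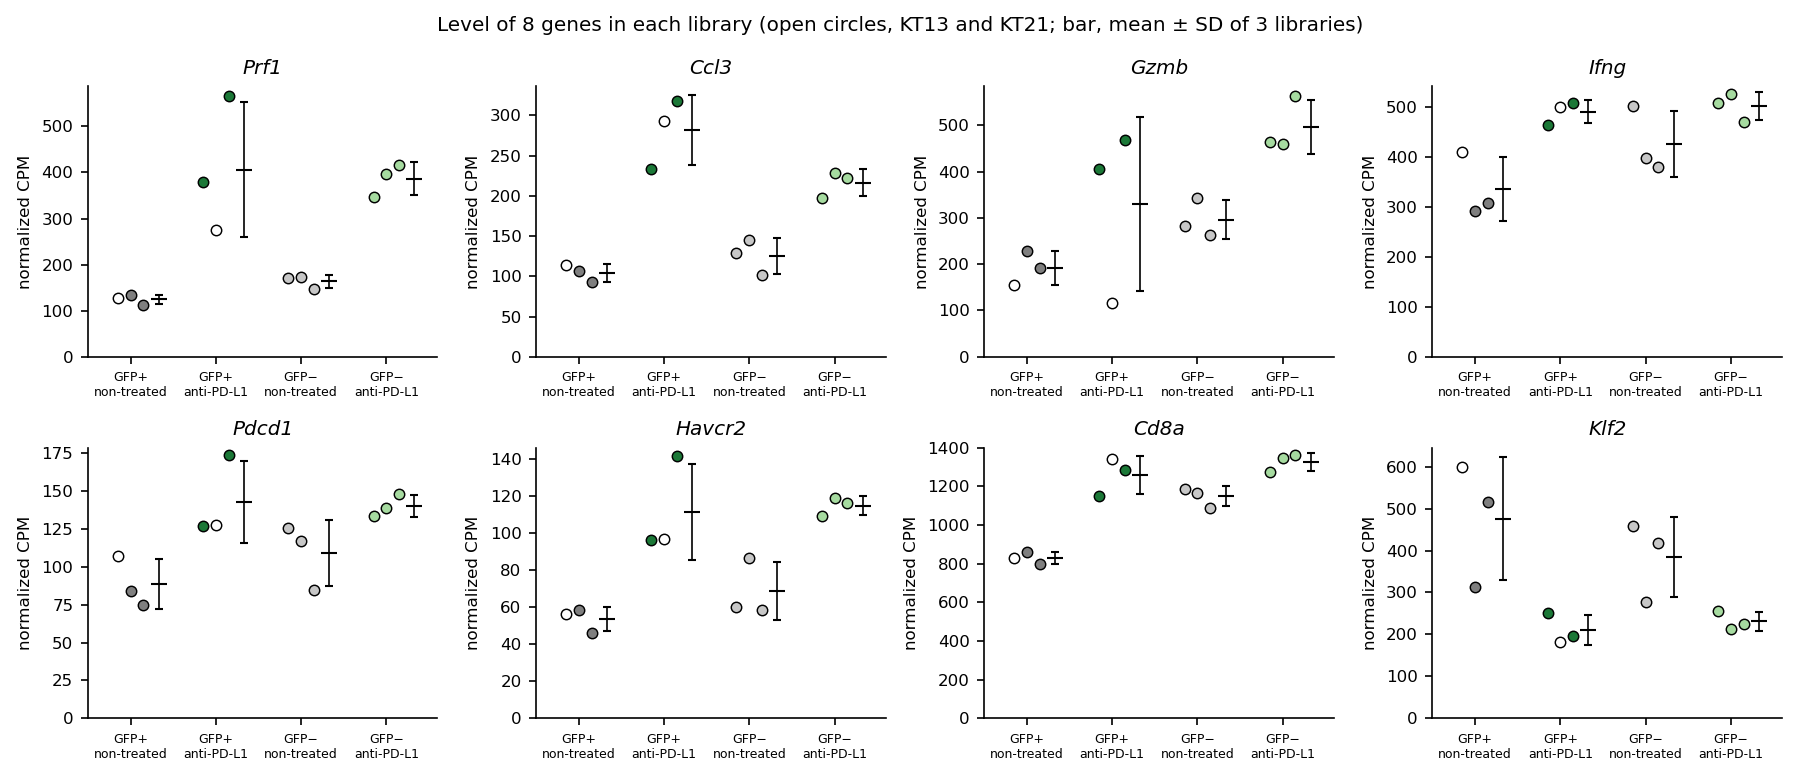
Normalized CPM of 8 genes in each of the 12 libraries, by group, with the mean ± SD of 3 libraries beside the points and KT13 and KT21 as open circles. For Prf1, Ccl3, Ifng, Pdcd1, Havcr2 and Cd8a every treated GFP+ library lies above every non-treated one and for Klf2 below, whereas KT21 lies at 115 CPM for Gzmb, below all non-treated GFP+ libraries.

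Among the chemokines, Ccl4 and Ccl5 rose along with Ccl3 without KT13 and KT21. Ccl5 had 923, 766 and 690 CPM in the non-treated and 1217, 1782 and 1761 CPM in the treated libraries, without overlap. Its log2 fold change was 1.03 (SE 0.176, edgeR adjusted p = 0.00279) without KT13 and KT21 and 1.001 (adjusted p = 0.0946) over all 12. Ccl4, the neighbour of Ccl3 on chromosome 11, had 153 to 198 CPM in the non-treated and 256 to 336 CPM in the treated libraries (log2 fold change 0.88, edgeR adjusted p = 0.00969 without KT13 and KT21, and 0.71, adjusted p = 0.311 over 12). Ccl1 was at 44.9 to 69.7 CPM in the non-treated and at 109 to 150 CPM in the treated libraries, and did not pass (edgeR adjusted p = 0.0946 and 0.0595). Ifng, which encodes interferon gamma, had 410, 291 and 308 CPM in the non-treated and 464, 500 and 507 CPM in the treated libraries. The highest non-treated value was that of KT13. The log2 fold change of Ifng was 0.70 (SE 0.132, edgeR adjusted p = 0.00883) without KT13 and KT21 and 0.54 (SE 0.162, adjusted p = 0.425) over 12 libraries. Tnf, the other classical effector cytokine, had 61.5, 30.8 and 39.7 CPM in the non-treated and 36.8, 35.9 and 34.3 CPM in the treated libraries, so the groups overlapped. Its log2 fold change was −0.30 over 12 libraries and 0.015 without KT13 and KT21 (SE 0.231 and 0.196, edgeR adjusted p = 0.908 and 0.994). Of the 24 cytokine and chemokine genes tested, 1 was called higher over 12 libraries and 4 without KT13 and KT21, and none was called lower. Of all genes tested, 0.0141% and 0.251% were called higher in these fits. The median log2 fold change of this list was 0.067 and 0.12, close to that of all genes. Lta and Tnfsf8, named after their values were seen and members of the TNF family, lay below in all treated libraries and did not pass, with log2 fold changes of −0.58 and −0.90 over 12 libraries (edgeR adjusted p = 0.471 and 0.455) and of −0.61 and −0.91 without KT13 and KT21 (0.333 and 0.212).

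Inhibitory receptors mark antigen-experienced and exhausted CD8+ T cells. The list of 17 used here also holds Entpd1, the gene of an enzyme. Of the 17, 3 rose without KT13 and KT21 and none was called over 12 libraries. Of all genes tested, 0.251% and 0.0141% were called higher in these fits. Havcr2, which encodes TIM-3, had 56.2, 58.4 and 46.0 CPM in the non-treated and 96.3, 96.8 and 141 CPM in the treated libraries (log2 fold change 1.19, SE 0.195, edgeR adjusted p = 0.00239). Pdcd1, which encodes PD-1 itself, had 107, 84.2 and 75.04 CPM in the non-treated and 127, 128 and 174 CPM in the treated libraries (log2 fold change 0.92, SE 0.173, edgeR adjusted p = 0.00883). Over all 12 libraries the values were 1.06 for Havcr2 and 0.69 for Pdcd1 (edgeR adjusted p = 0.0946 and 0.379). Entpd1, which encodes the ectonucleotidase CD39, had 21.6, 19.3 and 18.3 CPM in the non-treated and 32.3, 41.3 and 39.1 CPM in the treated libraries, and its log2 fold change was 0.93 in both fits (edgeR adjusted p = 0.0153 without KT13 and KT21 and 0.0946 over 12). The median log2 fold change of the 17 was 0.34 over 12 libraries, with 13 positive estimates, and 0.19 without KT13 and KT21, with 12. Lag3 had 32.0, 9.24 and 7.70 CPM in the non-treated and 11.2, 38.9 and 11.7 CPM in the treated libraries, with the high values in KT13 and KT21. Ctla4 was at 40.7 CPM in KT21 and at 143 and 265 CPM in the other treated libraries, and did not pass (edgeR adjusted p = 0.928 and 0.0879). Of the 12 costimulatory receptors, Icos was called without KT13 and KT21. It had 98.4, 123 and 113 CPM in the non-treated and 181, 198 and 225 CPM in the treated libraries (log2 fold change 0.79, SE 0.151, edgeR adjusted p = 0.00967, and 0.86, adjusted p = 0.0946 over 12). The coreceptor gene Cd8a had 831, 860 and 799 CPM in the non-treated and 1149, 1340 and 1283 CPM in the treated libraries. Its log2 fold change was 0.55 (SE 0.107, edgeR adjusted p = 0.0103) without KT13 and KT21 and 0.60 (adjusted p = 0.0946) over 12. It was the 1 gene called among 12 CD8 T cell markers, all of which had a positive estimate in both fits, with a median of 0.26 over 12 libraries and 0.24 without KT13 and KT21.

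Of 22 effector and exhaustion transcription factors, 3 rose without KT13 and KT21, and Klf2, a factor of resting T cells, fell. None of these was called over 12 libraries. Of all genes tested without KT13 and KT21, 0.251% were called higher and 0.312% lower. Prdm1, which encodes Blimp-1, a repressor that drives terminal effector differentiation, had 9.35, 16.1 and 14.8 CPM in the non-treated and 28.5, 22.1 and 40.3 CPM in the treated libraries (log2 fold change 1.16, SE 0.264, edgeR adjusted p = 0.0437, and 1.17, adjusted p = 0.273 over 12). Id2, which restrains E proteins in effector cells, had a log2 fold change of 0.94 (edgeR adjusted p = 0.0182) without KT13 and KT21 and 0.65 (adjusted p = 0.592) over 12, and had 572 CPM in KT21, within the non-treated range of 406 to 582 CPM. Rbpj, the DNA-binding partner of Notch, had 146, 145 and 134 CPM in the non-treated and 208, 160 and 243 CPM in the treated libraries, with log2 fold changes of 0.70 (edgeR adjusted p = 0.030) without KT13 and KT21 and 0.52 (adjusted p = 0.493) over 12. The median log2 fold change of the 22 was 0.38 over 12 libraries, with 16 positive estimates, and 0.31 without KT13 and KT21, with 17. Tox, a central factor of exhaustion, had 101 to 130 CPM in the non-treated and 108 to 139 CPM in the treated libraries and did not pass (edgeR adjusted p = 0.990 and 0.553). Klf2, which maintains quiescence and tissue egress, had 599, 313 and 516 CPM in the non-treated and 251, 183 and 196 CPM in the treated libraries. Its log2 fold change was −0.89 (SE 0.204, edgeR adjusted p = 0.0441) without KT13 and KT21 and −1.18 (SE 0.241, adjusted p = 0.0984) over 12. Klf2 was the only gene called among 19 stem-like and memory genes, where 14 estimates were negative and 5 positive in each fit, with a median of −0.17 over 12 libraries and −0.20 without KT13 and KT21. Tcf7, which marks stem-like cells, overlapped between the groups, with 37.3 to 74.3 CPM in the non-treated and 16.1 to 64.1 CPM in the treated libraries.

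**Figure D4:**
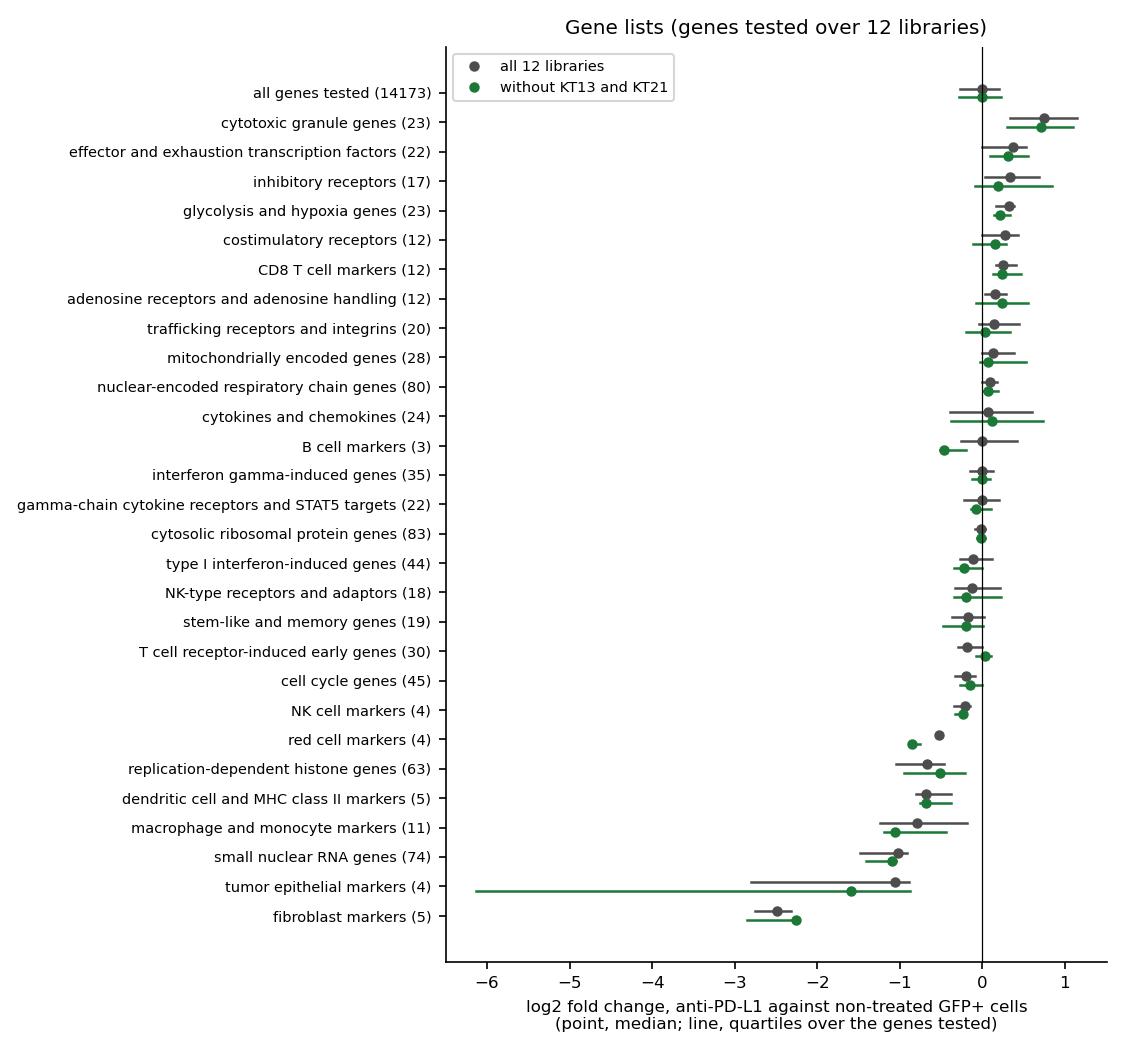
Median (point) and quartiles (line) of the log2 fold change, anti-PD-L1 against non-treated GFP+ cells, over the tested genes of each list with at least 3 of them, over all 12 libraries (grey) and without KT13 and KT21 (green). Cytotoxic granule genes have the highest median at 0.74 and 0.71, all genes tested lie at −0.0065 and 0, and small nuclear RNA genes, replication-dependent histone genes and markers of macrophages, tumor cells and fibroblasts lie below.

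The gene of the sorted receptor, Adora2a, had 67.3, 63.0 and 60.2 CPM in the non-treated and 66.3, 111 and 89.1 CPM in the treated libraries. KT19 lay within the non-treated range and KT21 was the highest. The log2 fold change of Adora2a was 0.49 (SE 0.19, edgeR adjusted p = 0.623) over 12 libraries and 0.34 (SE 0.183, adjusted p = 0.648) without KT13 and KT21. Among 12 tested genes of adenosine receptors and adenosine handling, Entpd1, counted above with the inhibitory receptors, was the only one called, without KT13 and KT21. The median of the list was 0.16 over 12 libraries and 0.24 without KT13 and KT21. The share of all genes called higher without KT13 and KT21 was 0.251%. Nt5e, which encodes CD73 and completes the conversion of AMP to adenosine, had 46.4 to 50.02 CPM in the non-treated and 39.1 to 55.9 CPM in the treated libraries. Adora3 was at 5.98 to 13.4 CPM and 8.76 to 12.4 CPM, and Adora2b did not exceed 1.69 CPM in any of the 6 libraries. Of 23 glycolysis and hypoxia genes, the glucose transporter gene Slc2a3 was called without KT13 and KT21. It had 16.7, 15.3 and 18.9 CPM in the non-treated and 30.1, 28.6 and 55.1 CPM in the treated libraries (log2 fold change 1.31, SE 0.231, edgeR adjusted p = 0.00393, and 1.16, adjusted p = 0.0946 over 12). The estimates of 20 of the 23 were positive in each fit, with a median of 0.33 and 0.22.

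Other genes rose without KT13 and KT21 and were not called over 12 libraries. Ly6a, which encodes Sca-1, had 203 to 219 CPM in the non-treated and 319 to 473 CPM in the treated libraries (log2 fold change 0.73, edgeR adjusted p = 0.0145, and 0.90, adjusted p = 0.0946 over 12). Plek, an adaptor of the cytoskeleton, had 70.2 to 81.2 CPM and 118 to 135 CPM (0.84, edgeR adjusted p = 0.00265, and 0.77, adjusted p = 0.0946 over 12). Rgs8, a regulator of G protein signaling, had 5.76 to 11.5 CPM and 16.8 to 39.1 CPM (2.03, edgeR adjusted p = 0.00186, and 1.61, adjusted p = 0.0984 over 12). Bcl2a1b, a survival factor of the BCL2 family, had 157 to 192 CPM and 214 to 325 CPM (0.80, edgeR adjusted p = 0.00958, and 0.59, adjusted p = 0.427 over 12), and it shares much of its sequence with Bcl2a1d, which was also called. AA467197 and the long noncoding RNA gene 2310031A07Rik rose by 1.51 and 1.81 on the log2 scale (edgeR adjusted p = 0.00249 and 0.00279), and over 12 libraries the values were 1.39 and 1.62 (adjusted p = 0.0946 for each). Klrd1, which encodes CD94, had 270, 487 and 495 CPM in the non-treated and 662, 154 and 770 CPM in the treated libraries, with KT21 below all others (log2 fold change 0.54, edgeR adjusted p = 0.039 without KT13 and KT21, and 0.34, adjusted p = 0.982 over 12). Wscd2 had 3.47, 0.0633 and 0.398 CPM in the non-treated and 5.28, 4.25 and 8.15 CPM in the treated libraries, and its call (edgeR adjusted p = 0.0051, and 0.658 over 12) rested on counts near 0 in KT15 and KT17. The remaining genes called higher, named after their values were seen, were Smpdl3b, Cox17, Sdcbp2, Ppp2r2c, Bcl2a1d, Nrp1, Adam8, Polk, Ociad2, AW112010, Ccdc92 and Rsrp1. In Cox17 and Rsrp1, KT21 lay below all 3 non-treated libraries, at 20.6 and 104 CPM.

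Lower genes that encode proteins were few. Mki67, a marker of cycling cells, had 86.5, 93.3 and 87.9 CPM in the non-treated and 57.0, 120 and 57.8 CPM in the treated libraries, where KT21 lay above all non-treated ones. The estimate for Mki67 on the log2 scale was −0.66 (SE 0.147, edgeR adjusted p = 0.0387) without KT13 and KT21 and −0.19 (SE 0.237, adjusted p = 0.988) over 12. No other of the 45 cell cycle genes was called in either fit, and the median of the list was −0.20 over 12 libraries and −0.15 without KT13 and KT21. The share of all genes called lower without KT13 and KT21 was 0.312%. Among 63 tested replication-dependent histone genes, whose main transcripts end without a poly(A) tail, 61 estimates were negative over 12 libraries and 55 without KT13 and KT21, with medians of −0.67 and −0.51. All 3 treated libraries lay below all non-treated ones in 23 of the 63, against 5.67% of all genes tested. Hist1h1d, a linker histone gene, was the only one called. It had 16.1, 10.0 and 5.18 CPM in the non-treated and 1.29, 3.94 and 2.37 CPM in the treated libraries (log2 fold change −2.06, edgeR adjusted p = 0.0438 without KT13 and KT21 and 0.169 over 12). Besides Klf2, Mki67 and Hist1h1d, the protein-coding genes called lower were C1qa and, named after their values were seen, Rhob, Lars2, Dlg4, Ckb and Bcl9l. Rhob, a small GTPase gene, had 66.9, 39.8 and 60.4 CPM in the non-treated and 24.2, 24.6 and 20.2 CPM in the treated libraries, without overlap (log2 fold change −1.17, edgeR adjusted p = 0.0417, and −1.27, adjusted p = 0.0984 over 12). The long noncoding RNA Xist had 301, 162 and 185 CPM in the non-treated and 93.0, 179 and 76.0 CPM in the treated libraries, and Lars2 had 774, 353 and 271 CPM against 113, 358 and 91.9 CPM. In both, KT21 overlapped the non-treated libraries, with log2 fold changes of −1.03 and −1.61 without KT13 and KT21 (edgeR adjusted p = 0.00168 and 0.0102) and −0.89 and −1.31 over 12 (0.492 and 0.643).

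Lists of interferon-induced genes, early genes of T cell receptor signaling and STAT5 targets held few calls. Of 44 type I interferon-induced genes, Ly6a was the only one called, without KT13 and KT21, and the median was −0.11 over 12 libraries and −0.21 without them. By comparison, 0.251% of all genes tested were called higher without KT13 and KT21. None of 35 interferon gamma-induced genes was called by edgeR in either fit, with medians of −4.11e-04 and −0.0080. The 30 genes induced early by the T cell receptor had a median of −0.18 over 12 libraries and 0.034 without KT13 and KT21, so its sign depended on these libraries, and none was called. The 22 tested genes of gamma-chain cytokine receptors and STAT5 targets, a list written for this comparison, had medians of −0.0047 and −0.075 and no call. It is not the STAT5 signature of the paper, which included Ifng, Tnf, Prf1 and Gzmb. By gene set enrichment, the paper reported that signature as higher after anti-PD-L1 in A2AR+ and A2AR− cells. Prf1, Gzmb and Ifng are not on the list used here, and the paper's signature was not tested.

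Markers of several other cell types of the tumor had lower summed levels in the treated libraries, and 1 of them passed the test. C1qa, a complement gene of macrophages, had 75.04, 96.2 and 85.7 CPM in the non-treated and 55.7, 43.5 and 26.6 CPM in the treated libraries. The estimate for C1qa on the log2 scale was −1.14 (SE 0.262, edgeR adjusted p = 0.0441) without KT13 and KT21 and −1.03 (adjusted p = 0.284) over 12. It was the only one called of 11 tested macrophage and monocyte markers, against 0.312% of all genes called lower without KT13 and KT21. Of these 11, 6 lay below in all treated libraries, against 5.67% of all genes tested. Their median was −0.79 over 12 libraries and −1.05 without KT13 and KT21. The summed level of all 12 markers of this list was 206 to 285 CPM in the non-treated and 86.1 to 170 CPM in the treated libraries. Sums of fibroblast markers were 17.8 to 71.9 CPM and 0.444 to 15.01 CPM, of tumor epithelial markers 25.1 to 33.7 CPM and 8.52 to 20.3 CPM, and of endothelial markers 19.6 to 24.5 CPM and 10.0 to 15.9 CPM, none of them overlapping. These sums are low: 5 of 7 fibroblast, 4 of 8 tumor epithelial and 2 of 4 endothelial markers had enough counts for a test over 12 libraries. B cell markers summed to 146 to 173 CPM and 97.5 to 133 CPM. Markers of dendritic cells and MHC class II overlapped at 250 to 354 CPM and 133 to 257 CPM, as did red cell markers at 257 to 551 CPM and 123 to 374 CPM, and neutrophil markers did not exceed 1.602 CPM. In contrast, the sum of CD8 T cell markers was higher in every treated than in every non-treated library. NK cell markers summed to 59.96 to 65.3 CPM and 47.4 to 59.6 CPM. The sums that did not overlap moved with the treatment beside the effector genes, and their part in the results was not tested.

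Most of the genes lower after anti-PD-L1 were snRNA genes, the RNA parts of the spliceosome. The 33 called genes belong to 5 families, and in 4 of these the called copies share most of their bases, so they are not 33 independent measurements. By alignment to a reference copy of each family, 14 were U1 copies, 12 U2, 4 U5, 2 U4 and 1 was Rnu12. A U1 and a U2 gene are shown with a copy each, because nearly all the bases are shared. In Rnu1a1, capitals mark the letters that pair with the 5′ splice site, and in Rnu2-10 those that pair with the branch point. In the copies, capitals mark the bases that differ from the gene above. The sequences are GENCODE vM21 transcripts on GRCm38, all on the + strand.
Rnu1a1, chr11:87422867-87423030: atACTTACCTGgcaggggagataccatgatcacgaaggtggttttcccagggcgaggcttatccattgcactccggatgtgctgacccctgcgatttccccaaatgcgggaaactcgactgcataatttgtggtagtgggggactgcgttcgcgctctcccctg
Gm23238, chr19:18732741-18732904: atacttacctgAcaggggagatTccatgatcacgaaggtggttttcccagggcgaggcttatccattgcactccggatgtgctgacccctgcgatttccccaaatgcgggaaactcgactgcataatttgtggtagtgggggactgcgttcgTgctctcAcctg
Rnu2-10, chr11:101658238-101658428: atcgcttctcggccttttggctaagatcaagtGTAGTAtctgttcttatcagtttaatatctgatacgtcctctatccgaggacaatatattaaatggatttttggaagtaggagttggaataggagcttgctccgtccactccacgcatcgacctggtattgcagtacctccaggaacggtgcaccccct
Gm25939, chr1:72255008-72255198: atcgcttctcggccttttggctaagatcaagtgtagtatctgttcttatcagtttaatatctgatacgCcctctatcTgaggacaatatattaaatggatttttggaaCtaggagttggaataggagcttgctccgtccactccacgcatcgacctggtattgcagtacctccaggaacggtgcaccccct
Gm23238 shares 97.6% of its bases with Rnu1a1 and differs at 4, and Gm25939 shares 98.4% with Rnu2-10 and differs at 3. Rnu2-10 had 248, 359 and 330 CPM in the non-treated and 179, 170 and 147 CPM in the treated libraries, without overlap. Its log2 fold change was −1.08 (SE 0.152, edgeR adjusted p = 6.83e-04) without KT13 and KT21 and −0.92 (SE 0.178, adjusted p = 0.0946) over 12. Gm24950, another U2 copy, had 248, 362 and 329 CPM against 178, 171 and 147 CPM, values that follow those of Rnu2-10 library by library. Over the 77 snRNA genes tested without KT13 and KT21 the median log2 fold change was −1.10, and over the 74 tested with all 12 libraries it was −1.03, with 0 called by edgeR. By comparison, 0.312% of all genes tested were called lower without KT13 and KT21. In 46 of the 74 all treated libraries lay below all non-treated ones, against 5.67% of all genes tested. snRNA genes together took 0.513%, 0.532% and 0.491% of the counts in KT13, KT15 and KT17, and 0.251%, 0.302% and 0.225% in KT19, KT21 and KT23. QuantSeq primes at poly(A) stretches, which mature spliceosomal snRNAs lack, and how reads with several matches were counted is not given in the sources used here. With protein-coding genes alone in the fit without KT13 and KT21, 32 genes were called higher and 7 lower (0.272% and 0.0595% of 11755), all of them among the 37 and the 46.

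Finally, the change in GFP+ cells was set beside that in GFP− cells, which were sequenced as separate libraries. The labels do not say whether GFP+ and GFP− cells were sorted from the same mice. Calls shared between them may therefore not be independent, and the interaction test treated the libraries as unpaired. The interaction of GFP and treatment was called by edgeR for 0 genes over 12 libraries (295, 2.08%, below 0.05 before adjustment) and for 0 genes without KT13 and KT21 (632, 4.29%, below 0.05 before adjustment), and DESeq2 called 0 in both sets. In GFP− cells, edgeR called 0 genes over 12 libraries (487, 3.44%, below 0.05 before adjustment), and 10 higher and 45 lower (0.0678% and 0.305%) without KT13 and KT21. KT13 and KT21 are GFP+ libraries, so both fits compared the same GFP− libraries. What changed was the estimate of the spread, which all groups share. In GFP− cells Prf1 had a log2 fold change of 1.23 (SE 0.215) over 12 libraries and 1.24 (SE 0.13) without KT13 and KT21. Of the genes called higher, 8 were called in both GFP+ and GFP− cells, which is 21.6% of the 37 and 80% of the 10. These were Prf1, Ccl3, Ccl5, Gzmb, Havcr2, AA467197, Cox17 and Nrp1. All 33 snRNA genes called lower in GFP+ cells were also called lower in GFP− cells, where 35 were. The snRNA genes had a median log2 fold change of −1.02 in GFP− cells, and the protein-coding genes called lower in both were C1qa and Rhob. The 37 genes, chosen in GFP+ cells, had a median of 1.03 there and 0.54 in GFP− cells, and each of them had a positive estimate in GFP− cells. Prf1 had 148 to 173 CPM in non-treated and 347 to 417 CPM in treated GFP− libraries, a log2 fold change of 1.24 (SE 0.13, edgeR adjusted p = 3.48e-05). The interaction of Prf1 was 0.70 (SE 0.203) without KT13 and KT21 and 0.47 (SE 0.299) over 12 libraries, and with edgeR's adjusted p of 0.9998 and 0.9999 no difference between GFP+ and GFP− cells was shown. Slc2a3 had 26.6 to 29.8 CPM in non-treated and 32.6 to 38.6 CPM in treated GFP− libraries. Its interaction was 0.997 (SE 0.294) and 0.844 (SE 0.324), with the same adjusted p from edgeR. For Ccl5 the log2 fold change was 0.99 (edgeR adjusted p = 3.09e-04) in GFP− cells, and the interaction was 0.042 (SE 0.225) without KT13 and KT21.

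**Figure D5:**
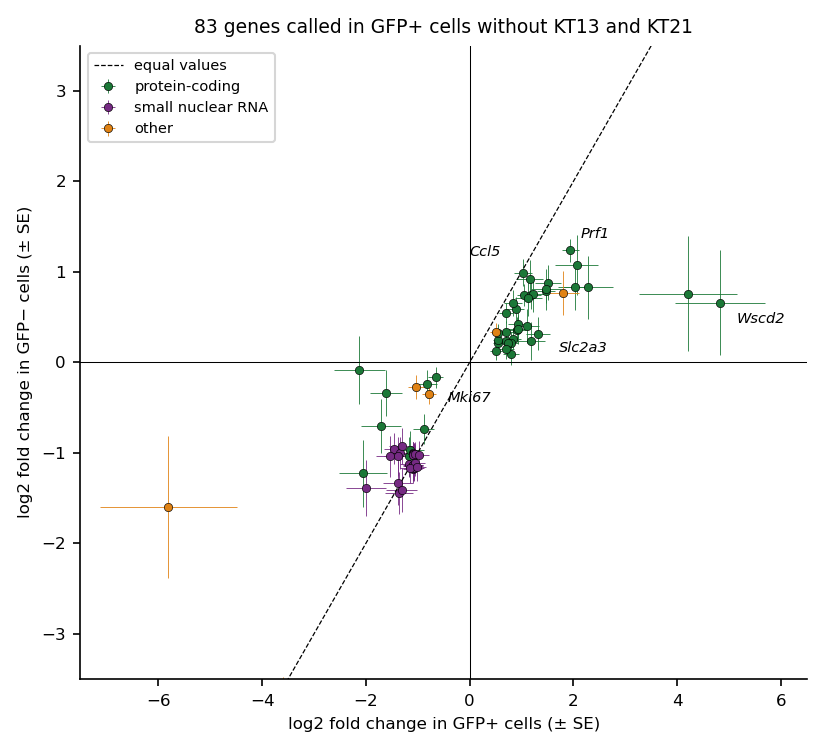
The 83 genes called in GFP+ cells without KT13 and KT21, with their log2 fold change ± SE in GFP+ cells on the horizontal axis and in GFP− cells on the vertical axis. The snRNA genes lie close to the line of equal values, most higher genes lie to the right of it, and the interaction test called 0 genes. Choosing genes by their call in GFP+ cells favours larger estimates there.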

How the data were processed

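CD8+ tumor-infiltrating T cells were measured by QuantSeq 3′ RNA sequencing in 12 libraries, 3 in each of 4 groups. According to the methods and the submitters' notes, the authors trimmed 75-base single-end reads with cutadapt (1.7 in the notes), aligned them to mm10 with HISAT2 and deposited raw read counts per gene made with featureCounts (Subread 1.6.4 in the notes). The strand setting, the treatment of reads with several matches and the annotation release are not given in the sources used here. Identifiers were named from GENCODE vM21, which matched 52489 of 52636.

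Counts were analysed in R 4.3.3 with edgeR 4.0.16: filterByExpr, TMM normalization, 1 fit of 4 groups, the quasi-likelihood F test and Benjamini-Hochberg adjustment, with calls at an adjusted p under 0.05. CPM are TMM-normalized. The steps were tested on simulated data. Alternatives included DESeq2 1.42.0, limma 3.58.1 voom with quality weights, other filters and normalization, and leaving out each library. Libraries are pools of 3 mice and the labels do not say whether these were sequenced together, so p-values measure the spread between libraries.

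The comparison, gene lists and motifs were chosen with earlier results of these data known. Named genes were Adora2a, Prf1, Gzmb, Ifng, Tnf, Pdcd1 and Cd8a, up to 15 genes per direction with the smallest adjusted p in each fit (without KT13 and KT21, those whose 3 treated libraries all lay above or below), and called list members, up to 4 per list and direction. Uncalled genes named beside a list were chosen after their values were seen.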

Additional observations from a re-analysis of the deposited data

How the results depend on the processing

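The count of called genes was 2 over 12 libraries and depended on the processing. It remained 2 with upper-quartile normalization, robust dispersion, a minimum of 10 counts in every library and, added after seeing the data, protein-coding genes alone. It was 83 without KT13 and KT21, 52 with limma-voom quality weights, 93 with DESeq2 and 123 with no filter beyond 1 count. With GFP+ libraries alone it was 0 (533 with an unadjusted p under 0.05). Among alternatives added after seeing the data, all without KT13 and KT21, it was 142 with DESeq2, 84 with GFP+ libraries alone and 39 with protein-coding genes alone. Leaving out each library in turn gave 0 to 34, with 0 without KT15 or without KT17, 13 without KT13, 34 without KT21 and 3 without KT23. All 15 genes that limma-voom called higher were among the 37 called without KT13 and KT21, and 35 of its 37 lower ones were among the 46. It gave KT13 and KT21 the lowest weights of all libraries. The interaction count was 10 with no filter beyond 1 count and 0 otherwise. Without KT13 and KT21 list medians moved to 0.16 for costimulatory receptors, −0.21 for type I interferon-induced genes, −0.99 for CD4 and regulatory T cell markers, −0.47 for B cell markers, −1.54 for neutrophil markers, −1.59 for tumor epithelial markers and 0.065 for respiratory chain genes. The log2 fold change of Tnf turned from −0.30 to 0.015 without KT13 and KT21, where it was 0.0037 with DESeq2, 0.0080 with GFP+ libraries alone and 0.00399 with protein-coding genes alone, and was −0.50 to 0.019 when each library was left out. Leaving out each library gave −0.026 to 0.78 for Klrd1 and −0.63 to 0.0098 for Mki67, and in both the sign turned without KT23. For Tnf it turned without KT13. The cause of these changes was not tested. No paired analysis was made, because the labels do not say which libraries share mice or a batch. Library numbers alternate between GFP+ and GFP− cells, from KT13 and KT14 to KT23 and KT24, and pairing by them was not tested. With 2 libraries per GFP+ group after KT13 and KT21 are left out, the estimate of a gene's spread leans on the GFP− libraries and on other genes.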

Other observations

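The lists of NK-type receptors, trafficking receptors, respiratory chain, ribosomal protein and mitochondrially encoded genes had 1 call in all, without KT13 and KT21. Of 18 NK-type receptors and adaptors tested, Klrd1 was the only one called, without KT13 and KT21, and the median log2 fold change was −0.13 over 12 libraries and −0.19 without them. By comparison, 0.251% of all genes tested were called higher without KT13 and KT21. Of 20 trafficking receptors and integrins none was called by edgeR in either fit, with medians of 0.14 and 0.030. Nuclear-encoded respiratory chain genes had positive estimates in 60 of 80 over 12 libraries and in 63 of 81 without KT13 and KT21, with medians of 0.094 and 0.065 and no call by edgeR. Cytosolic ribosomal protein genes had medians of −0.019 and −0.016 over 83 genes. The 28 tested mitochondrially encoded genes had medians of 0.13 and 0.065, again with no call by edgeR in either fit.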
